A study of Mus musculus with 6 samples.

Results

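The pericyte genes described here are Rgs5, Rgs4, Kcnj8, Abcc9, Cspg4, Notch3, Mcam, Higd1b and Vtn, 9 genes chosen by symbol as markers of cardiac pericytes and found in a table of 49548 mouse genes. All 9 were detected in every library and passed the filter on low counts. The samples were native cardiac fibroblasts (CFs) from hearts of C57BL/6J mice aged 5 weeks, 3 wild type (WT) and 3 CharmeKO. CharmeKO mice carry a PolyA signal inserted into the locus of Charme, a long non-coding RNA of cardiomyocytes, so that the allele was present in every cell of the animal and not in fibroblasts alone. According to the methods, native CFs were obtained by enzymatic dissociation of the heart, red blood cell lysis and magnetic depletion of hematopoietic lineages, without culture, whereas the labels of the same samples list a growth medium. The methods describe this isolation as one of non-cardiomyocyte populations and give no step that selects fibroblasts, and the study checked the cells by flow cytometry for CD45 and the endothelial CD309 (absence) and for CD90 and Sca1 (presence). Each library was one bulk poly(A) RNA-seq measurement, with 9595701 to 42101393 counts in WT and 23550718 to 31048606 in CharmeKO.

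Pericytes are the mural cells of capillaries: they lie on the endothelial tube, inside its basement membrane, and are recruited by platelet-derived growth factor from the endothelium. They regulate capillary tone and permeability and hold the endothelium quiescent. In the heart they share their lineage and many transcripts with vascular smooth muscle cells, and the genes described here fall into 4 kinds: regulators of G protein signalling (Rgs5, Rgs4), the vascular ATP-sensitive potassium channel (Kcnj8, Abcc9), surface receptors and adhesion molecules (Cspg4, Notch3, Mcam), and the remaining Higd1b and Vtn, which encode a mitochondrial protein and a secreted matrix protein.

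Before the comparison, the targeted gene and the cell types in the libraries were checked. Counts of Charme were 26, 15 and 4 in WT and 7, 0 and 0 in CharmeKO, levels too low to test the labels firmly (edgeR, adjusted p = 0.362). Expression is given in CPM, reads of a gene per 1000000 counted reads after TMM normalization, which corrects for differences in library composition. The 12 fibroblast markers (Pdgfra, Dcn, Col1a1 and others) summed to 31923 to 40291 CPM over the 6 libraries, 12 endothelial markers (Pecam1, Cdh5, Kdr and others) to 9143 to 12286 CPM, and the 9 pericyte genes to 1889 to 2347 CPM. Transcripts of the 9 genes were therefore present, within libraries that also held endothelial transcripts, Kdr, the gene of CD309, among them (795 to 1225 CPM). The fibroblast sum includes Gsn, the most abundant tested gene, which alone was at 17340 to 26456 CPM. The sums of the lists therefore do not compare the amounts of the cell types. Some of the 9, such as Mcam, are also expressed by smooth muscle and endothelium, so their sum does not measure pericytes alone. In such bulk samples, fewer pericytes and less RNA of a gene per pericyte cannot be told apart.

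The question of the comparison was how the transcriptome of native CFs differs when Charme is disrupted. None of the 9 pericyte genes differed between CharmeKO and WT at an adjusted p under 0.05 (edgeR's quasi-likelihood test across 15789 genes, Benjamini-Hochberg), whereas 131 genes, 0.830% of those tested, did. The summed level of the 9 genes was 1910 to 2347 CPM in WT and 1889 to 2092 CPM in CharmeKO, ranges that overlapped. Fitted log2 fold changes (CharmeKO minus WT) ran from −0.57 for Cspg4 to 0.12 for Kcnj8, with a median of −0.02 against 0.0096 for all tested genes. Of all tested genes, 48.8% had a negative log2 fold change. Cspg4 and Notch3 were the only members with an unadjusted p under 0.05, 2 of 9 against 12.8% of all tested genes. The same genes were also the only members whose CharmeKO and WT libraries did not overlap, 2 of 9 against 18.2% of all tested genes, and both were lower in CharmeKO, which held for 8.59% of all tested genes. The share of members with separate groups was thus near that of genes in general. According to the methods the hearts came from 3 mice of each genotype, so p-values measure the spread between these biological replicates, although the labels do not tie a library to an animal.

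**Figure D1:**
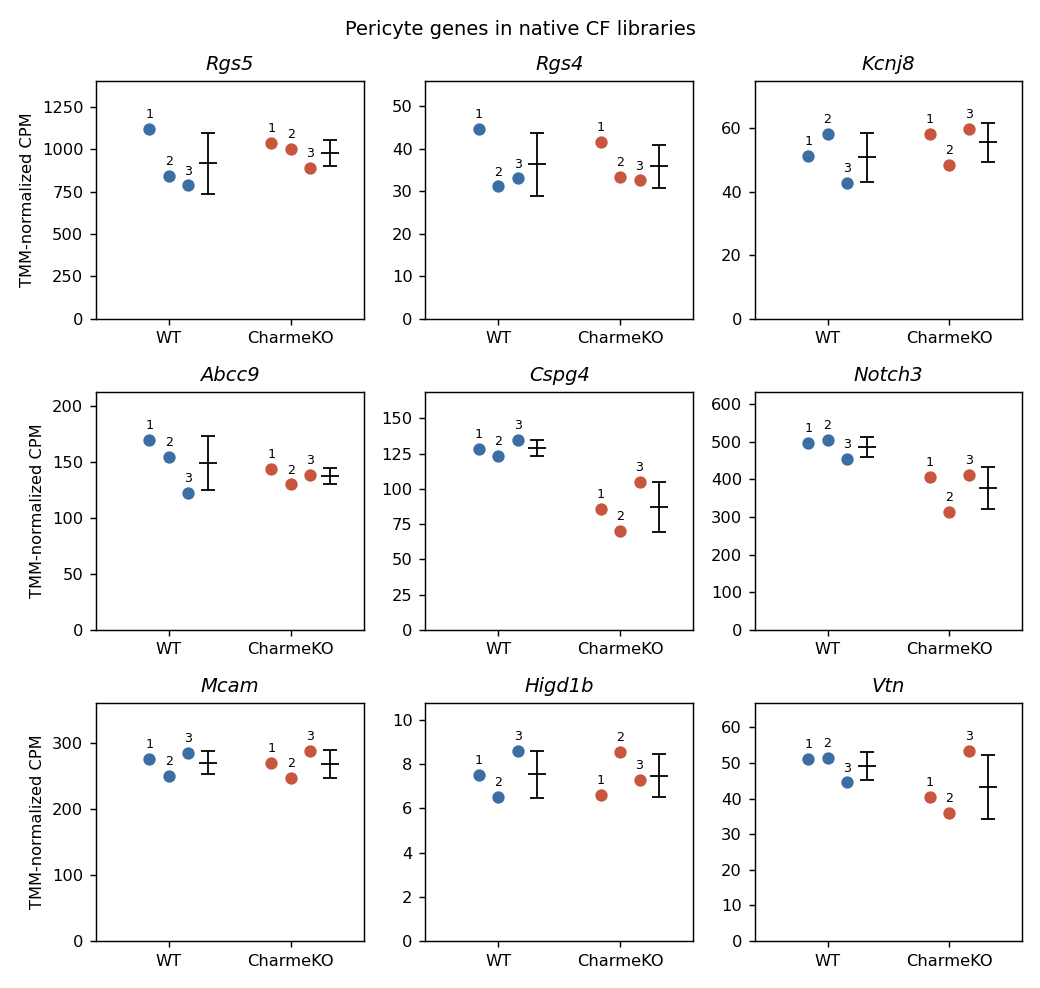
Each panel plots the TMM-normalized CPM (vertical axis, from 0) of 1 pericyte gene in the 3 WT (blue) and 3 CharmeKO (red) libraries, numbered by replicate, with the mean and SD of the group (n = 3) as a black bar. The CharmeKO points lie below every WT point for Cspg4 (85.8, 70.0 and 105 against 128, 124 and 135 CPM) and Notch3, and the groups overlap for the other 7 genes.

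Cspg4 encodes NG2, a chondroitin sulfate proteoglycan on the surface of pericytes that binds growth factors and matrix proteins and is the classical antigen for staining them. It was at 128, 124 and 135 CPM in the WT libraries and at 85.8, 70.0 and 105 CPM in the CharmeKO libraries. Every CharmeKO library was below every WT library, and the WT libraries lay close together. The means were 129 ± 5.65 CPM in WT and 86.9 ± 17.5 CPM in CharmeKO (SD, n = 3), a log2 fold change of −0.57 (SE 0.14, 95% confidence interval −0.88 to −0.25), or 32.5% lower. The unadjusted p was 0.00217 and the adjusted p 0.126 (edgeR), so the difference did not pass the threshold.

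The call for Cspg4 depended on the test. With DESeq2, the tool of the study's methods, on the same genes the log2 fold change was −0.57 with an adjusted p of 0.0158, and Cspg4 was the only member called, where 2.50% of all tested genes were. It was likewise the only member called by edgeR without the filter on low counts (−0.56, adjusted p = 0.00235, 2.84% of genes called), with a replicate block (−0.59, adjusted p = 0.0309, 1.91% called) and without CharmeKO replicate 3 (−0.73, adjusted p = 0.0379, 1.22% called). The log2 fold change without CharmeKO replicate 2, the lowest library, was −0.43 (edgeR, adjusted p = 0.446). The direction was the same in all 13 alternatives, and the size stayed between −0.73 and −0.43. The alternatives reused the same libraries, whose groups did not overlap, so the shared direction is no further evidence.

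**Figure D2:**
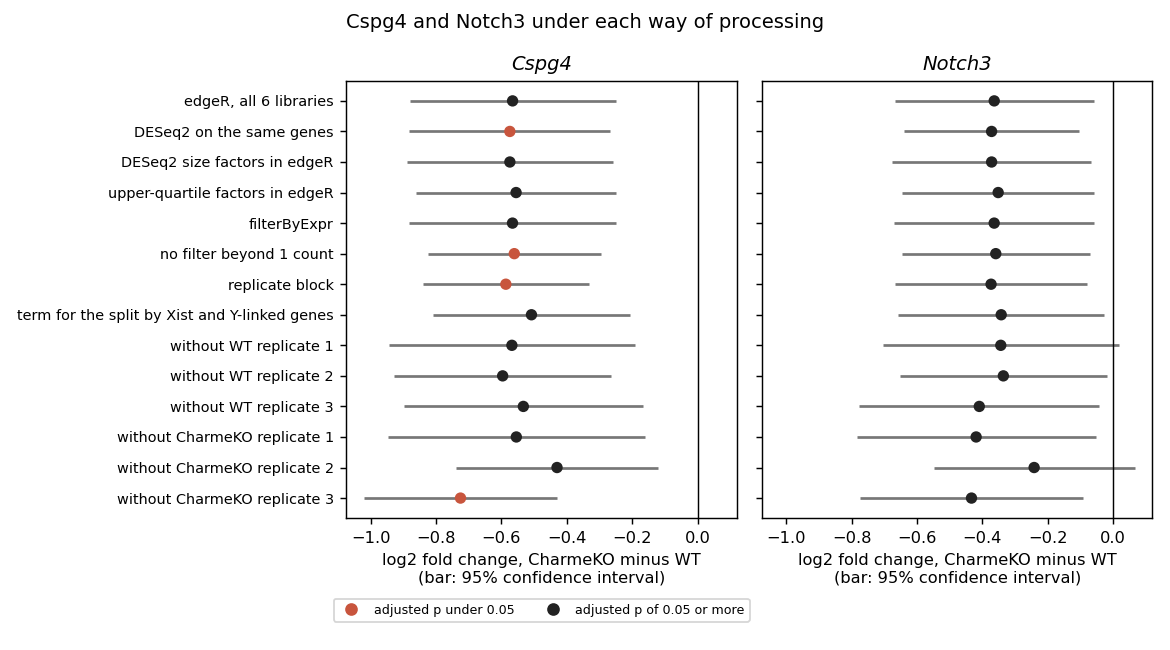
Log2 fold changes of Cspg4 (left) and Notch3 (right), CharmeKO minus WT, on the horizontal axis, with 95% confidence intervals as bars, for the fit to all 6 libraries in edgeR and 13 alternatives, red where the adjusted p was under 0.05. All points lie below 0, and 4 of the Cspg4 points, those of DESeq2, no filter, the replicate block and the fit without CharmeKO replicate 3, are red.

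The libraries also divided by Xist, a transcript of the inactive X chromosome, and by Y-linked genes, and this division crossed the genotypes. Xist was at 391 to 504 CPM in WT replicate 1 and CharmeKO replicates 1 and 2 and at most at 2.40 CPM in the other libraries, which had 92.3 to 106 CPM of summed Y-linked transcripts. Within the Xist libraries Cspg4 was at 128 CPM in WT and at 70.0 and 85.8 CPM in CharmeKO. Within the Y-linked libraries it was at 124 and 135 CPM in WT and at 105 CPM in CharmeKO. Because every CharmeKO library was below every WT library, the same direction on both sides, each with only 3 libraries, was fixed in advance. With a term for the division in edgeR the log2 fold change was −0.51 (adjusted p = 0.189).

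Notch3 encodes the Notch receptor of mural cells, which is activated by ligands on neighbouring cells and maintains vascular smooth muscle cells and pericytes. It was at 497, 505 and 454 CPM in WT and at 407, 312 and 412 CPM in CharmeKO. All CharmeKO libraries were below all WT libraries, with CharmeKO replicate 2 lowest, as for Cspg4. The means were 485 ± 27.4 and 377 ± 56.3 CPM (SD, n = 3), a log2 fold change of −0.36 (SE 0.14, 95% confidence interval −0.67 to −0.06, unadjusted p = 0.0234, adjusted p = 0.306 in edgeR). Notch3 passed the threshold in none of the 13 alternatives, where its log2 fold change ran from −0.43 to −0.24 and its adjusted p from 0.142 with DESeq2 to 0.723 without CharmeKO replicate 2. Within the Xist libraries it was at 497 CPM in WT and 312 to 407 CPM in CharmeKO, and within the Y-linked libraries at 454 to 505 and 412 CPM.

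On ligand binding, the released intracellular part of a Notch receptor joins the DNA-binding protein RBPJ and MAML coactivators on target genes such as those of the Hes and Hey families. Of 15 tested genes of this pathway (receptors, ligands, nuclear partners and targets), 1 changed, Rbpj, where 0.830% of all tested genes did. Log2 fold changes were negative for 12 and positive for 3, with a median of −0.18, where 48.8% of all tested genes were lower in CharmeKO. The list was chosen with earlier results of these data known. Rbpj was at 55.7, 43.9 and 47.8 CPM in WT and at 22.6, 19.1 and 25.3 CPM in CharmeKO. It fell in CharmeKO, with every CharmeKO library below every WT library (log2 fold change −1.14, SE 0.14, edgeR, adjusted p = 0.0020).

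Among the other receptors, Notch2 was at 107, 111 and 135 CPM in WT and at 89.5, 87.8 and 77.1 CPM in CharmeKO, groups that did not overlap (log2 fold change −0.47, edgeR, adjusted p = 0.141). Notch4, the endothelial receptor, had a log2 fold change of −0.50 (adjusted p = 0.262) and Notch1 one of −0.19 (adjusted p = 0.605), with overlapping groups for both. Maml1 had non-overlapping groups as well (−0.40, adjusted p = 0.181). Heyl, a Notch target of mural cells, had overlapping groups. Heyl was at 97.4, 105 and 105 CPM in WT and at 105, 92.3 and 106 CPM in CharmeKO (−0.02, adjusted p = 0.962). The log2 fold changes of the other targets were −0.18 for Hes1, −0.12 for Hey1, −0.19 for Hey2 and 0.005 for Nrarp, none past the threshold. Per kilobase of exon, Notch3 (53.3 ± 8.81 CPM per kb, SD, n = 6) stood at the level of Notch4 (54.7 ± 13.7), above Notch1 (37.9 ± 4.47) and Notch2 (9.40 ± 1.95).

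The promoters of the members whose groups did not overlap, Cspg4 and Notch3, are printed beside that of Rgs5, the most abundant member, to show how their sequences differ. They are the 250 bases before the transcription start in RefSeq on GRCm38.p6, each 5′ to 3′ on the strand of the gene, at chr9:56864854-56865103 (plus strand), chr17:32166891-32167140 (minus strand) and chr1:169655251-169655500 (plus strand). Capitals mark GGGCGG, the core of a GC box, on either strand (CCGCCC on the other), and TGGGAA, the core bound by RBPJ, on either strand (TTCCCA on the other). The letters of these motifs do not allow them to overlap each other.
Cspg4: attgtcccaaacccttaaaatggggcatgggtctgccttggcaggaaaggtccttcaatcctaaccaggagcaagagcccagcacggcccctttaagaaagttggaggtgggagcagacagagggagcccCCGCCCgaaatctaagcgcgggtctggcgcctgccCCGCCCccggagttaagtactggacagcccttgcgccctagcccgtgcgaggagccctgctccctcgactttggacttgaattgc
Notch3: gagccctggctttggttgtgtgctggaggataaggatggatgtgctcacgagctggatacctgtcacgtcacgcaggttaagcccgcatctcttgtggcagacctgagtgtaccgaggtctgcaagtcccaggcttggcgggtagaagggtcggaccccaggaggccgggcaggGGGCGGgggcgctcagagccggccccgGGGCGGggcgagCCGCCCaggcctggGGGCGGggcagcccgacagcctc
Rgs5: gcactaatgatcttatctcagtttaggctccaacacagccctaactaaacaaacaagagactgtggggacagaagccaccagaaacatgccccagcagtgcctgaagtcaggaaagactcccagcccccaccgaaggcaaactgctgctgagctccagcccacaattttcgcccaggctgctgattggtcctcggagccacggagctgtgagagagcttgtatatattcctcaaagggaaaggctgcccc
The Cspg4 window held 2 GC box cores, the Notch3 window 4, and the Rgs5 window none, while none of these windows held an RBPJ core. Of the 9 members, 8 had a promoter in the table, all but Higd1b. Mcam had 5 GC box cores and Abcc9 1, and Rgs4, Kcnj8 and Vtn had none. An RBPJ core occurred in the Abcc9 and Vtn windows, 1 in each. For comparison, 32.7% of 32851 mouse windows of the same length held a GC box core and 21.6% an RBPJ core. The CArG box of smooth muscle genes was present in none of the 8 windows and in 1.47% of all windows. The GC content was 60.4% for Cspg4, 68.8% for Notch3, 73.6% for Mcam and 66.8% for Abcc9, above the median of 52.4% over all windows, and 49.2% to 53.6% for Rgs5, Rgs4, Kcnj8 and Vtn. These matches describe the letters of the windows, and nothing was measured on binding.

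Rgs5 and Rgs4 encode GTPase-activating proteins that shorten signalling by G protein-coupled receptors such as those of angiotensin and endothelin, and Rgs5 is among the most specific pericyte transcripts. Both are on chromosome 1, where they are neighbouring coding genes in RefSeq. Rgs5 was at 1121, 842 and 786 CPM in WT and at 1038, 1003 and 888 CPM in CharmeKO. The groups overlapped, with WT replicate 1 highest and WT replicate 3 lowest. The means were 916 ± 180 and 977 ± 78.5 CPM (SD, n = 3), a log2 fold change of 0.09 (SE 0.16, 95% confidence interval −0.25 to 0.43, edgeR, adjusted p = 0.856). Rgs5 ranked 114th by mean CPM among the tested genes.

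Rgs4 was at 44.8, 31.2 and 33.0 CPM in WT and at 41.7, 33.5 and 32.5 CPM in CharmeKO. Replicate 1 was the highest library of each genotype, and the groups overlapped. Its log2 fold change was −0.02 (SE 0.16, 95% confidence interval −0.37 to 0.33, edgeR, adjusted p = 0.971). These intervals allow ratios of CharmeKO to WT from 0.840 to 1.35 for Rgs5 and from 0.772 to 1.26 for Rgs4. The log2 ratio of Rgs4 to Rgs5 was −4.66 ± 0.09 in WT and −4.77 ± 0.13 in CharmeKO (SD, n = 3), and the libraries of the genotypes overlapped.

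Of 16 tested genes of the RGS family none passed the threshold, with 10 positive and 6 negative log2 fold changes and a median of 0.13. Rgs5 had the highest level per length in the family at 208 ± 28.3 CPM per kb (SD, n = 6), followed by Rgs16 at 39.8, Rgs3 at 16.8 and Rgs4 at 11.7 CPM per kb. CharmeKO libraries lay above all WT libraries for Rgs2 (log2 fold change 0.33), Rgs7 (1.16) and Rgs18 (1.77), with adjusted p from 0.255 to 0.389 in edgeR. These were 3 of 16 genes, where 18.2% of all tested genes had separate groups and 9.57% were higher in CharmeKO without overlap. Levels were low for Rgs7 and Rgs18, with means of 1.54 and 1.12 CPM over the 6 libraries.

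Kcnj8 encodes Kir6.1, the pore of the vascular ATP-sensitive potassium channel, and Abcc9 its regulatory subunit SUR2. Opening of the channel hyperpolarizes mural cells and relaxes them. Their genes are neighbouring coding genes on chromosome 6. Kcnj8 was at 51.4, 58.3 and 42.9 CPM in WT and at 58.3, 48.5 and 60.0 CPM in CharmeKO, with overlapping groups and WT replicate 3 lowest (log2 fold change 0.12, SE 0.14, 95% confidence interval −0.18 to 0.42, edgeR, adjusted p = 0.771). Abcc9 was at 170.2, 155 and 122 CPM in WT and at 144, 130 and 139 CPM in CharmeKO. The groups overlapped, since the WT range enclosed the CharmeKO range (log2 fold change −0.12, SE 0.14, 95% confidence interval −0.41 to 0.18, edgeR, adjusted p = 0.781). The subunit genes thus had fitted differences of opposite sign, which kept their signs in all 13 alternatives, and neither passed the threshold in any of them. Both intervals included 0, and the alternatives reused the same libraries, so the kept signs are no further evidence of a difference. The log2 ratio of Kcnj8 to Abcc9 was −1.55 ± 0.16 in WT and −1.31 ± 0.11 in CharmeKO (SD, n = 3), and the libraries of the genotypes overlapped.

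Per kilobase of exon, Kcnj8 (20.9 CPM per kb) and Abcc9 (17.1 CPM per kb) were at similar levels. Kcnj11 and Abcc8, the pore and regulatory subunits of the pancreatic and neuronal form, were at 0.339 and 0.0422 CPM per kb. Their group means were 0.960 ± 0.325 and 1.53 ± 0.219 CPM for Kcnj11 and 0.269 and 0.415 CPM for Abcc8, in WT and CharmeKO. Neither passed the threshold, though the groups did not overlap for Kcnj11, and the Abcc8 level was close to the floor of 3 counts per library, which is 0.0705 to 0.323 CPM.

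Mcam encodes CD146, an adhesion molecule of pericytes, smooth muscle and endothelium that binds the laminins of the vascular basement membrane. It was at 276, 250.2 and 284 CPM in WT and at 269.9, 247 and 288 CPM in CharmeKO. Each replicate number had nearly the same level in both groups, which overlapped throughout. The means were 270.1 ± 17.7 and 268 ± 20.8 CPM (SD, n = 3), a log2 fold change of −0.01 with the narrowest interval of the 9 genes (SE 0.12, 95% confidence interval −0.27 to 0.25, edgeR, adjusted p = 0.982).

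Among 8 tested partners of CD146 and NG2 (laminin chains, integrin and growth factor genes) none passed the threshold, while 7 log2 fold changes were negative and the median was −0.22. Lamc1, the laminin gamma chain of most basement membranes, was at 3462, 3846 and 4443 CPM in WT and at 2583, 2334 and 3224 CPM in CharmeKO. Its groups did not overlap (log2 fold change −0.53, edgeR, adjusted p = 0.207), nor did those of Lama5 (−0.51, adjusted p = 0.254), and those of Lama4, whose laminin CD146 binds, overlapped (−0.19, adjusted p = 0.648). Laminins are made by several cell types of these libraries, and the source of these transcripts was not measured.

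Vtn encodes vitronectin, an adhesive glycoprotein that the liver secretes into plasma and that pericytes also express. It was at 51.1, 51.5 and 44.5 CPM in WT and at 40.5, 35.9 and 53.4 CPM in CharmeKO. CharmeKO replicates 1 and 2 were below all WT libraries and CharmeKO replicate 3 was above them, so the groups overlapped (log2 fold change −0.18, SE 0.15, 95% confidence interval −0.51 to 0.14, edgeR, adjusted p = 0.663). Of 7 tested partners (integrin subunits, urokinase and its receptor, and their inhibitor) none passed the threshold and 6 had negative values, with a median of −0.15. For the vitronectin receptor subunits the log2 fold changes were −0.15 for Itgav, −0.02 for Itgb3 and −0.05 for Itgb5.

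Higd1b, a mitochondrial inner membrane protein of the hypoxia-induced domain family and a selective pericyte marker, was the least abundant member. It had 80 to 319 counts per library, or 7.50, 6.51 and 8.61 CPM in WT and 6.60, 8.55 and 7.30 CPM in CharmeKO. The groups overlapped, with a log2 fold change of −0.00033 and the widest interval of the 9 genes (SE 0.20, 95% confidence interval −0.45 to 0.45, edgeR, adjusted p = 0.999). None of the 3 tested genes of its family passed the threshold. Per length, Higd2a was at 64.4, Higd1b at 8.87 and Higd1a at 5.44 CPM per kb.

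Per kilobase of exon, averaged over all 6 libraries, the order of the members was Rgs5 (208 ± 28.3 CPM per kb, SD, n = 6), Mcam (80.3 ± 5.18), Notch3 (53.3 ± 8.81), Vtn (22.7 ± 3.45), Kcnj8 (20.9 ± 2.66), Abcc9 (17.1 ± 2.06), Rgs4 (11.7 ± 1.82), Cspg4 (9.04 ± 2.16) and Higd1b (8.87 ± 1.08). The steps from Rgs5 to Mcam, Mcam to Notch3, Notch3 to Vtn and Abcc9 to Rgs4 were larger than the spread and had the same direction in 6 of 6 libraries. Vtn and Kcnj8, Kcnj8 and Abcc9, Rgs4 and Cspg4, and Cspg4 and Higd1b had overlapping ranges over the 6 libraries. The place of Cspg4 differed by genotype. In WT it was at 10.4 to 11.3 CPM per kb, above Higd1b (7.68 to 10.2) in 3 of 3 libraries and overlapping with Rgs4 (10.1 to 14.5). In CharmeKO it was at 5.87 to 8.80 CPM per kb, below Rgs4 (10.5 to 13.5) in 3 of 3 libraries and overlapping with Higd1b (7.79 to 10.1). Exon lengths came from another annotation than the one used for counting, and all isoforms of a gene were merged.

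**Figure D3:**
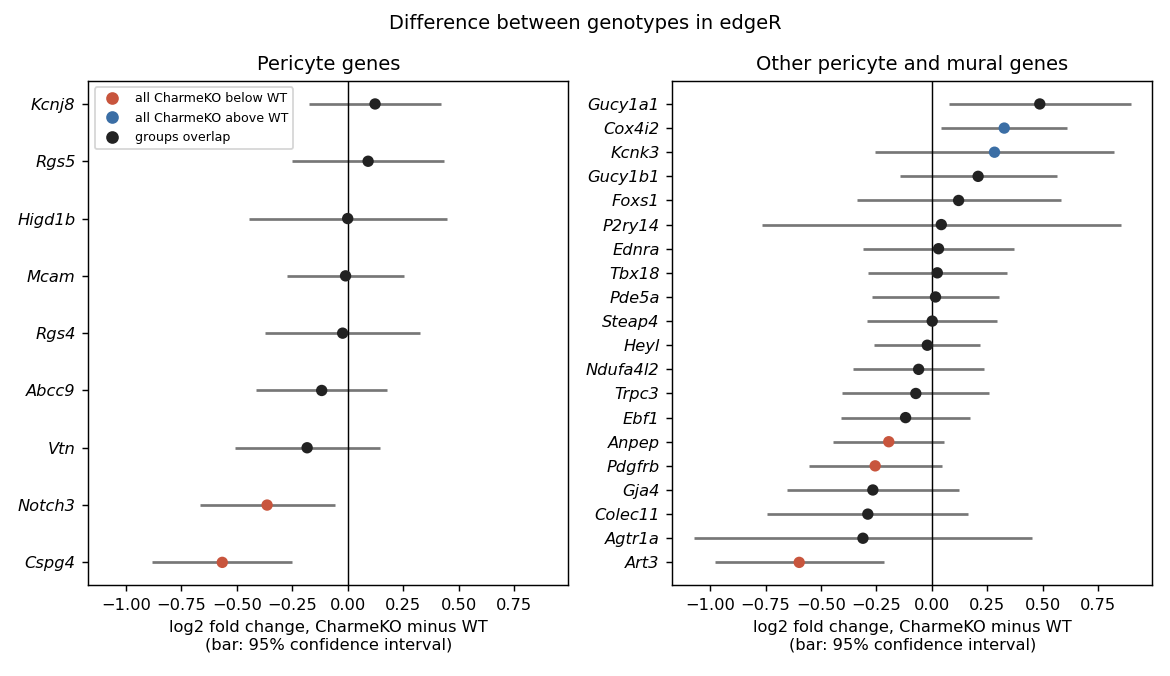
Log2 fold changes, CharmeKO minus WT, on the horizontal axis with 95% confidence intervals as bars, for the 9 pericyte genes (left) and 20 other pericyte and mural genes (right), coloured by whether the 3 CharmeKO libraries lay all below (red) or all above (blue) the 3 WT libraries. Among the pericyte genes only Cspg4 (−0.57) and Notch3 (−0.36) are red, and on the right Art3 (−0.60) lies lowest.

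To see whether further genes of mural cells behaved alike, 20 other pericyte and mural genes were examined. None passed the threshold, 10 log2 fold changes were positive and 10 negative, and the median was −0.009. Pdgfrb, the receptor through which pericytes are recruited, was at 309, 367 and 302 CPM in WT and at 299.6, 236 and 284 CPM in CharmeKO. Its groups did not overlap, although the highest CharmeKO library nearly reached the lowest WT library (log2 fold change −0.26, SE 0.14, edgeR, adjusted p = 0.467). Art3, an ADP-ribosyltransferase family member of the cell surface, was at 73.6, 58.7 and 59.1 CPM in WT and at 43.8, 31.1 and 51.7 CPM in CharmeKO. All CharmeKO libraries were below WT here too, and CharmeKO replicate 2 was again lowest (−0.60, SE 0.17, edgeR, adjusted p = 0.183).

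Anpep, the aminopeptidase CD13, was also lower without overlap (−0.19, adjusted p = 0.513). Cox4i2, a hypoxia-responsive subunit of cytochrome c oxidase, and Kcnk3, a potassium channel, were higher without overlap (0.33 and 0.28, adjusted p = 0.318 and 0.689 in edgeR). Gucy1a1 had the largest positive log2 fold change of the list (0.49, SE 0.19, edgeR, adjusted p = 0.308). It was at 56.9, 56.6 and 39.8 CPM in WT and at 85.9, 77.9 and 52.5 CPM in CharmeKO, with overlapping groups. Relative to Pdgfrb, the log2 ratio was −1.34 ± 0.21 in WT and −1.66 ± 0.20 in CharmeKO for Cspg4, 0.58 ± 0.11 and 0.46 ± 0.07 for Notch3, and 1.48 ± 0.34 and 1.84 ± 0.22 for Rgs5 (SD, n = 3). Relative to Rgs5, it was −2.81 ± 0.30 and −3.51 ± 0.39 for Cspg4 and −0.90 ± 0.24 and −1.38 ± 0.29 for Notch3. The libraries of the genotypes overlapped in each of these ratios.

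Of 11 tested ligands and receptors of pericyte recruitment and contact, none passed the threshold, and 6 log2 fold changes were positive. The groups did not overlap for 6 of the 11 genes, against 18.2% of all tested genes, with CharmeKO higher for Angpt1, Angpt2 and Tek and lower for Pdgfb, Pdgfrb and Tgfb1. The list was chosen with earlier results of these data known, so this share is no independent evidence. Pdgfrb is also counted among the other pericyte and mural genes, and Tek among the endothelial genes. Pdgfb, the endothelial ligand of the receptor encoded by Pdgfrb, was at 189.9, 151 and 151 CPM in WT and at 139, 125 and 123 CPM in CharmeKO, without overlap (−0.35, edgeR, adjusted p = 0.292). Angpt1, the ligand with which mural cells activate the endothelial receptor Tie2, was at 4.56, 4.57 and 5.92 CPM in WT and at 7.61, 7.36 and 10.3 CPM in CharmeKO. Its groups did not overlap, with CharmeKO higher (0.77, edgeR, adjusted p = 0.183), and the same held for Angpt2, which opposes Angpt1 at that receptor (0.47, adjusted p = 0.223), and for Tek, which encodes Tie2 (0.28, adjusted p = 0.425). Tgfb1, which drives mural cell differentiation, was at 240.2, 254 and 274 CPM in WT and at 205, 193 and 239.6 CPM in CharmeKO, without overlap (−0.27, edgeR, adjusted p = 0.410).

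The members did not share 1 pattern over the libraries. Likeness was measured as the root mean square (RMS) difference between profiles of log2(CPM + 1), each centred on its own mean over the 6 libraries. Over the 36 pairs of members it ran from 0.108 for Rgs5 and Rgs4 to 0.443 for Rgs5 and Cspg4, with a median of 0.232. Cspg4 was nearest to Notch3 among the members (0.155), and Notch3 to Vtn (0.142). Rgs4 was only the 186th nearest gene to Rgs5, Notch3 the 210th nearest to Cspg4 and Vtn the 388th nearest to Notch3, among 10474 genes with a mean of at least 5 CPM.

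The genes nearest to single members were Prmt3 for Rgs5 (RMS difference 0.047), Tfpi for Rgs4 (0.052), Ptger4 for Kcnj8 (0.045), Gpr89 for Abcc9 (0.041) and Marcksl1 for Cspg4 (0.045). They were Rnf217 for Notch3 (0.025), Rab31 for Mcam (0.022), Mgat5 for Higd1b (0.032) and Esrra for Vtn (0.048). The mean profile of the 9 genes was highest in WT replicate 1 (0.17) and lowest in CharmeKO replicate 2 (−0.17). The 10 genes nearest to it were Surf2 (0.018), Cpm (0.025), Top1 (0.034), Opa3, Jak2, Rnft1, Abcf1, Wipi1, Tomm22 and Arhgap42 (0.040). The members themselves were left out of that ranking.

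**Figure D4:**
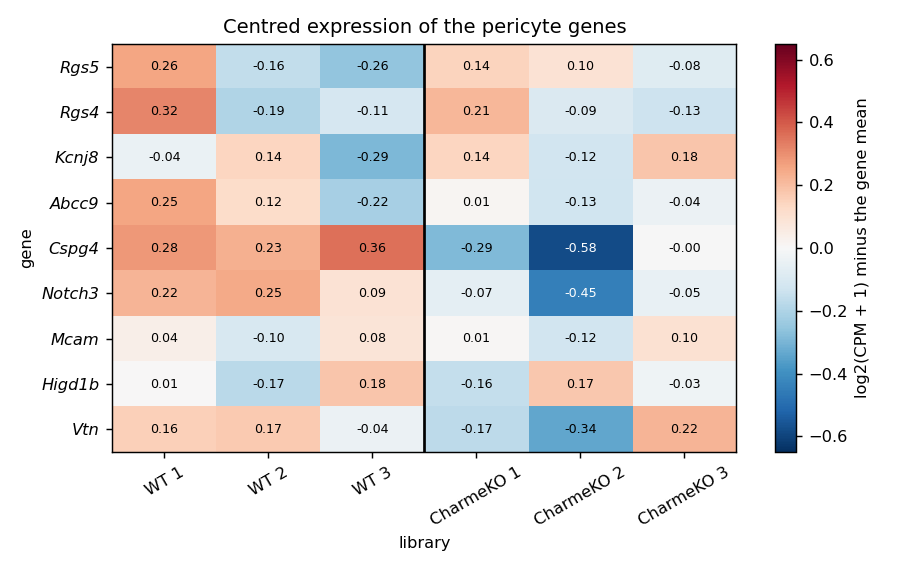
Heat map of log2(CPM + 1) minus the mean of the gene (colour and printed number) for the 9 pericyte genes (rows) in the 6 libraries (columns, WT left of the line). Cspg4 and Notch3 are positive in all WT libraries and at most 0 in the CharmeKO libraries, lowest in CharmeKO replicate 2 (−0.58 and −0.45), whereas Rgs5 and Rgs4 are highest in WT replicate 1 (0.26 and 0.32).

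Because the libraries held several cell types, the markers of the others were set beside the pericyte genes. Of 10 cardiomyocyte markers 3 rose in CharmeKO, Tnni3 (log2 fold change 0.95, adjusted p = 0.0200), Myh6 (0.85, adjusted p = 0.0292) and Mb (0.90, adjusted p = 0.0339, all edgeR), and all 10 were positive with a median of 0.77. Of all tested genes, 0.418% rose at this threshold. For 7 of the 10 markers CharmeKO was higher without overlap, against 9.57% of all tested genes. The 10 markers summed to 348 to 446 CPM in WT and 524 to 820 CPM in CharmeKO, ranges that did not overlap, and none of the 10 was at 0. Of 6 erythroid genes Slc4a1 fell (−1.82, edgeR, adjusted p = 0.00555), where 0.412% of all tested genes did. The sum of the 6 was 26792 to 39242 CPM in WT and 24418 to 31751 CPM in CharmeKO.

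No marker passed the threshold among 14 smooth muscle genes (median 0.23, sum 1673 to 1798 CPM in WT and 1655 to 2091 CPM in CharmeKO), 12 fibroblast genes (−0.05, 34117 to 40291 and 31923 to 37123 CPM) or 12 endothelial genes (0.21, 9143 to 11230 and 9784 to 12286 CPM). The same held for the 6 tested leukocyte genes (0.05, 27.7 to 51.3 and 37.8 to 49.9 CPM) and the 7 tested Schwann cell genes (0.04, 28.3 to 30.8 and 31.3 to 33.1 CPM). Groups did not overlap for 5 of the 12 endothelial genes (4 higher and 1 lower in CharmeKO) and for 3 of the 12 fibroblast genes. In the fibroblast list 5 of 12 genes had an unadjusted p under 0.05 (edgeR), against 12.8% of all tested genes. Col1a1 (−0.77), Mfap5 (−0.63), Col1a2 (−0.54) and Pi16 (−0.35) were lower in CharmeKO and Dcn (0.29) was higher, with adjusted p from 0.168 to 0.381 in edgeR. The study, which used DESeq2, reports lower expression of collagen genes. In the smooth muscle list, whose cells are the nearest relatives of pericytes, 11 of 14 log2 fold changes were positive. For 3 of these 14 genes the groups did not overlap, near the share of 18.2% for all tested genes. Tagln (0.27, adjusted p = 0.424) and Cnn1 (0.42, adjusted p = 0.410) were higher in CharmeKO and Smtn (−0.48, adjusted p = 0.188, all edgeR) was lower. The part of these cell types in the values of Cspg4 and Notch3 was not tested.

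**Figure D5:**
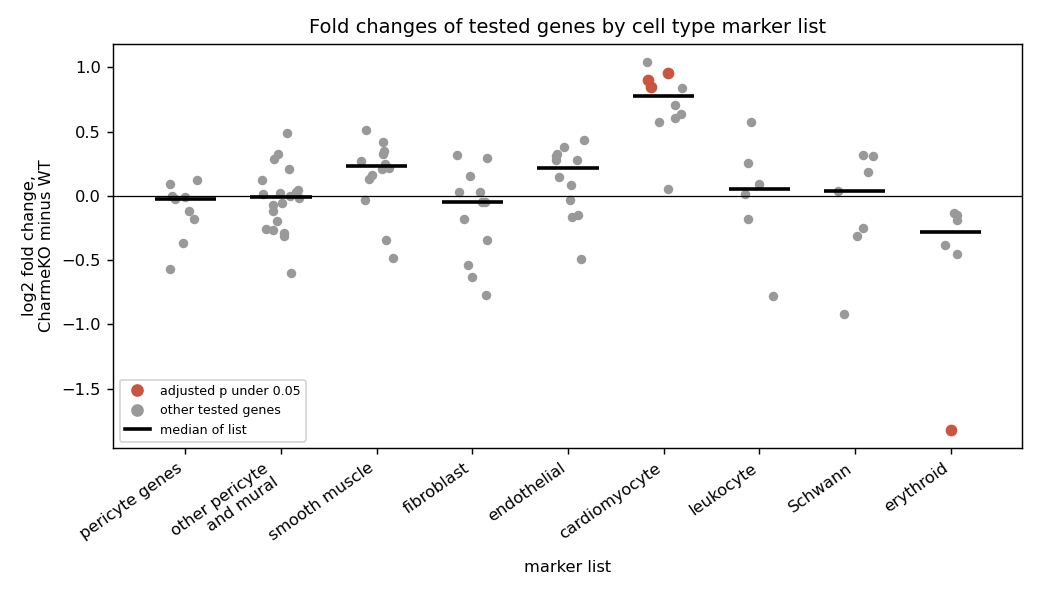
Log2 fold changes, CharmeKO minus WT (vertical axis), of the tested genes of 9 marker lists (horizontal axis), 1 point per gene, red where the edgeR adjusted p was under 0.05, with the median of each list as a black line. The pericyte genes and the other pericyte and mural genes centre near 0 (medians −0.02 and −0.009), the cardiomyocyte list lies highest (0.77) with 3 red genes, and 1 erythroid gene (Slc4a1, −1.82) is red.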

How the data were processed

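Poly(A) RNA of native CFs was sequenced in 6 libraries. The authors filtered reads by quality, aligned them with STAR to a mouse assembly (GRCm39 in the methods, while the submitters' processing notes also name a human build) and counted them on Ensembl genes, to which Charme was added, on the reverse strand. The deposited table holds raw counts per gene, without normalization or filter. Columns were matched to samples by the library names in the labels.

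The 15789 genes that reached 10 counts in 2 or more libraries were tested with edgeR 4.0.16 in R 4.3.3: TMM normalization, a quasi-likelihood test of CharmeKO against WT on all 6 libraries without covariates, two-sided, Benjamini-Hochberg adjustment over all tested genes and a threshold of 0.05. Standard errors were derived from the F statistics. The biological coefficient of variation was 20.2%. Total counts were 9595701 to 42101393 per library, with WT replicate 3 the shallowest, and a count of 0 allows up to 3 counts, counting error only. In data simulated for this comparison, with log2 changes of 1.5, 158 of 193 changed genes among 15273 were recovered by edgeR with 5 false calls, and 162 by DESeq2 1.42.0 with 35. That change is larger than the one fitted for any member, so the recovery of smaller changes was not tested. No library duplicated another.

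The alternatives were DESeq2, DESeq2 size factors and upper-quartile factors in edgeR, filterByExpr, no filter beyond 1 count, a replicate block, a term for the split by Xist and Y-linked genes, and leaving out each library. The named genes were all 9 members, the list genes past the threshold, relatives and partners of the members, and the genes of nearest pattern. Further genes whose groups did not overlap, such as Art3, Smtn, Pdgfb, Angpt1 and Lamc1, were picked after their values were seen. The same holds for the targets of Notch, for Gucy1a1 and for the fibroblast genes given with values, such as Col1a1 and Gsn. The members and lists were chosen with earlier results of these data known. Exon lengths came from GENCODE mouse release M21 (union of exons), and promoters and gene order from RefSeq on GRCm38.p6. Proteins were not used here.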

Additional observations from a re-analysis of the deposited data

How the results depend on the processing

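The number of called genes moved with the tool, the filter, the block and the library left out, at the same threshold. Against 131 called genes, 394 were called by DESeq2 (154 higher and 240 lower in CharmeKO, against 66 and 65), 699 without a filter beyond 1 count (253 and 446), 302 with a replicate block (115 and 187), and 61 to 349 when 1 library was left out, without CharmeKO replicate 1 and WT replicate 2 in turn. The number of members called was 1, Cspg4, with DESeq2, without the filter and with the block, and 0 to 1 when 1 library was left out. The cause was not tested. Deviations from the group means correlated at 0.216, 0.0535 and 0.161 between same-numbered libraries of the genotypes. Between differently numbered libraries the correlations were lower, from −0.223 to 0.0391. Whether replicate numbers pair the samples was not tested. The block changed no member's call but that of Cspg4.

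Signs changed for Mcam, Higd1b, Rgs5 and Rgs4, and for no other member. Mcam became positive with upper-quartile factors (0.0018) and with the Xist and Y-linked term (0.0069), Higd1b with upper-quartile factors (0.0127) and without the filter (0.0039), and Rgs5 became negative with the Xist and Y-linked term (−0.0047). Leaving out 1 library gave log2 fold changes of −0.0075 to 0.27 for Rgs5, −0.14 to 0.17 for Rgs4, −0.066 to 0.049 for Mcam and −0.10 to 0.093 for Higd1b, and medians of the members of −0.134 to 0.0036, the latter without WT replicate 1. Higd1b is limited by its depth of 80 counts in WT replicate 3.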

Other observations

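The division into libraries with Xist and libraries with Y-linked transcripts separated Rgs5 and Rgs4, which were picked after their values were seen. Rgs5 was at 1003 to 1121 CPM in the 3 Xist libraries and at 786 to 888 CPM in the 3 Y-linked libraries, ranges that did not overlap. Rgs4 was at 33.5 to 44.8 CPM and 31.2 to 33.0 CPM in the same libraries, narrowly without overlap. The other 7 members overlapped across the division, so that 2 of 9 were separated by it, against 13.7% of all tested genes. Within the Xist libraries Rgs5 was at 1121 CPM in WT and at 1003 and 1038 CPM in CharmeKO, and within the Y-linked libraries at 786 and 842 CPM in WT and at 888 CPM in CharmeKO. No test was run on this division.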
